A study of Homo sapiens with 22 samples.

Results

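Dex (dexamethasone, a synthetic glucocorticoid) given at 100 nM for 2 h was compared with vehicle in MDA-MB-231, a TNBC cell line. The comparison used 4 of the 10 RNA-seq libraries in a series of 22 samples, namely the 2 libraries labelled as Dex at 2 h and the 2 labelled as vehicle, chosen by label alone. The other 6 RNA-seq libraries held Dex (100 nM) at 4 h and CpdA (Compound A, a selective GR modulator, at 10 μM) at 2 h and 4 h, with 2 libraries each, and entered the fit to estimate the spread between duplicates. All cells were the same line and had been kept for some days in phenol red-free medium with charcoal-stripped serum, which holds little steroid, before vehicle or ligand was added. The labels gave the vehicle libraries no time, and both served as the reference for 2 h. The names of the deposited files carry 2 h for Vehicle replicate 1 and 4 h for Vehicle replicate 2, so the pair may hold a difference in time, which cannot be told apart here from the spread between duplicates. The fits without Vehicle replicate 1 or 2 therefore also leave 1 of these file times as the reference. The study described the duplicates as biological, but the labels did not tie them to separate cultures, so the p-values measure the spread between these libraries, which may be technical.

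Glucocorticoids bind GR, the glucocorticoid receptor encoded by NR3C1, which then leaves its HSP90 chaperone complex, enters the nucleus and acts on genes through DNA elements of its own or through other factors bound nearby. In many tissues GR raises genes of metabolism, of the circadian clock and of feedback on kinase and cytokine signalling, and lowers inflammatory genes driven by NF-kB and AP-1. NF-kB is a family of dimers held in the cytoplasm by IkB proteins, and AP-1 is a dimer of FOS and JUN proteins.

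Levels are RPKM, read density scaled to transcript length and to the mapped reads of the library, as deposited. Differences are on the scale of log2(RPKM + 0.1), Dex 2 h minus vehicle unless another contrast is named, and ± is their standard error. This scale understates the change of genes with low RPKM. A gene is called upregulated or downregulated where the adjusted p of limma was under 0.05 (Benjamini-Hochberg over the 12713 genes tested, those with at least 0.5 RPKM in at least 2 of the 10 libraries). The relative depth of the libraries, read from the RPKM step that 1 read is worth, was 1.0 and 1.013 for vehicle and 1.137 and 1.212 for Dex 2 h, and read totals are unknown. A gene under 0.5 RPKM with vehicle can pass the filter through the Dex 2 h libraries alone. Such a gene enters a list only as an increase. The mesenchymal genes of this line were abundant, with VIM at 1439 and 1464 RPKM and LGALS1 at 1142 and 1135 in the vehicle libraries. ESR1, the estrogen receptor, was listed at 0 in all 4 libraries, and ERBB2 was at 18.6 and 17.6 RPKM with vehicle. The leukocyte gene PTPRC was at 0.0553 and 0.0415 RPKM with vehicle and the endothelial gene PECAM1 at 0.324 and 0.246.

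At 2 h, 571 genes were upregulated (4.49% of the genes tested) and 740 were downregulated (5.82%). Past a fold of 2 the balance turned, with 170 genes upregulated (1.34%) and 86 downregulated (0.676%). Without Dex 2 h replicate 1 the downregulated genes numbered 380, and without Dex 2 h replicate 2 they numbered 451. Regardless of any test, both Dex libraries lay above both vehicle libraries for 20.1% of genes and below both for 31.4%, and the median difference over all genes tested was -0.018. The SD of the log2 difference between duplicates was 0.261 for vehicle and 0.225 for Dex 2 h.

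**Figure D1:**
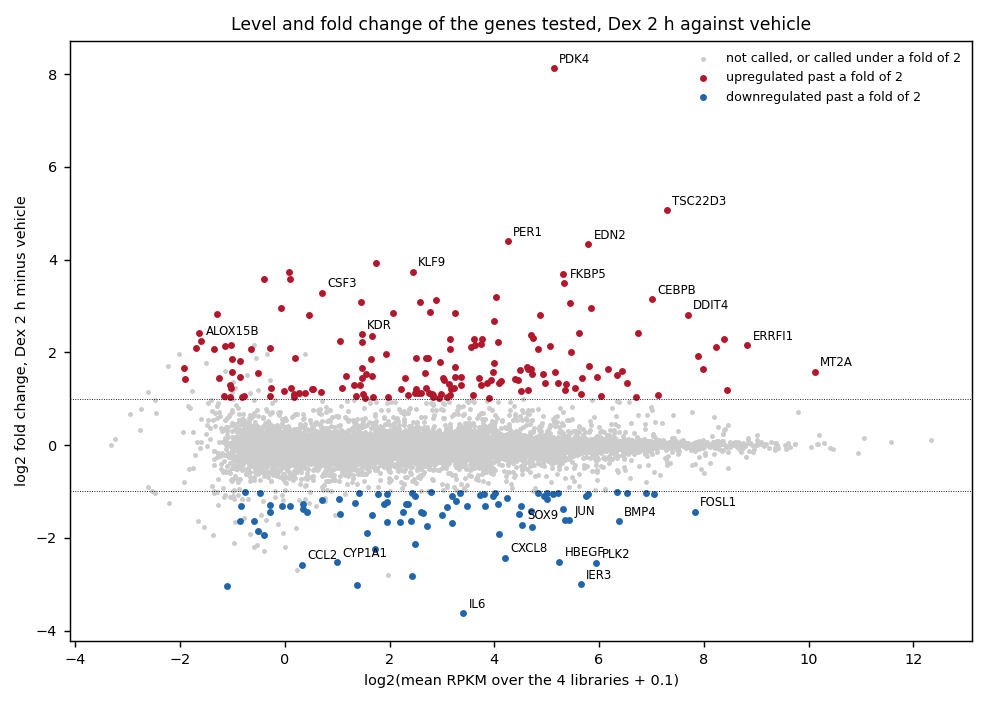
Each point is a gene tested, with its level over the 4 libraries on the x axis (log2 of mean RPKM) and its log2 difference, Dex 2 h minus vehicle, on the y axis. The 170 genes upregulated past a fold of 2 reach 8.13 at PDK4, and the 86 downregulated past it reach -3.63 at IL6.

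The receptor transcript was lower after Dex. NR3C1 was at 22.9 and 20.4 RPKM with vehicle and 14.6 and 14.7 after Dex, so the groups did not overlap (-0.56 ± 0.09, adjusted p = 0.00269). Of 22 genes of the receptor complex and its coregulators, 2 were upregulated and NR3C1 alone was downregulated. FKBP5, an immunophilin that binds HSP90 and lowers the affinity of the receptor for hormone, was at 5.94 and 7.06 RPKM with vehicle and 75 and 73.4 after Dex (3.5 ± 0.07, adjusted p = 6.12e-09). DNAJB1, a partner of HSP70, had a smaller difference (0.48 ± 0.06, adjusted p = 0.000878). The 9 coregulators had 0 calls by limma, with 2 higher and 1 lower at an unadjusted p under 0.05.

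Of 32 textbook glucocorticoid-induced genes tested, 24 were upregulated and 1 downregulated, with a median difference of 1.66. They were listed because glucocorticoids are known to induce them, so the count describes the treatment and is not independent evidence of a direction. Among the transcriptional regulators, CEBPB, a bZIP factor of acute phase and fat cell genes, was at 25.5 and 26.9 RPKM with vehicle and 245 and 220.4 after Dex (3.14 ± 0.06, adjusted p = 6.12e-09). BCL6, a zinc finger repressor, was at 7.25 and 4.67 RPKM with vehicle and 26.5 and 28.3 after Dex (2.21 ± 0.16, adjusted p = 1.85e-05). Among the brakes on signalling, DUSP1, a phosphatase of MAP kinases, was at 14.6 and 11.6 RPKM with vehicle and 101 and 101 after Dex (2.95 ± 0.08, adjusted p = 8.08e-08). ERRFI1, an inhibitor of the EGF receptor, was already abundant and was at 198 and 138 RPKM with vehicle and 732 and 745 after Dex (2.16 ± 0.13, adjusted p = 6.26e-06). For each of these genes both Dex libraries lay above both vehicle libraries. The downregulated member was SOCS3, an inhibitor of JAK signalling, at 6.64 and 9.39 RPKM with vehicle and 2.52 and 2.42 after Dex (-1.64 ± 0.14, adjusted p = 4.87e-05). Smaller increases included GLUL, glutamine synthetase (0.75 ± 0.04, adjusted p = 1.87e-06), and SCNN1A, a subunit of the epithelial sodium channel (0.61 ± 0.09, adjusted p = 0.00282).

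**Figure D2:**
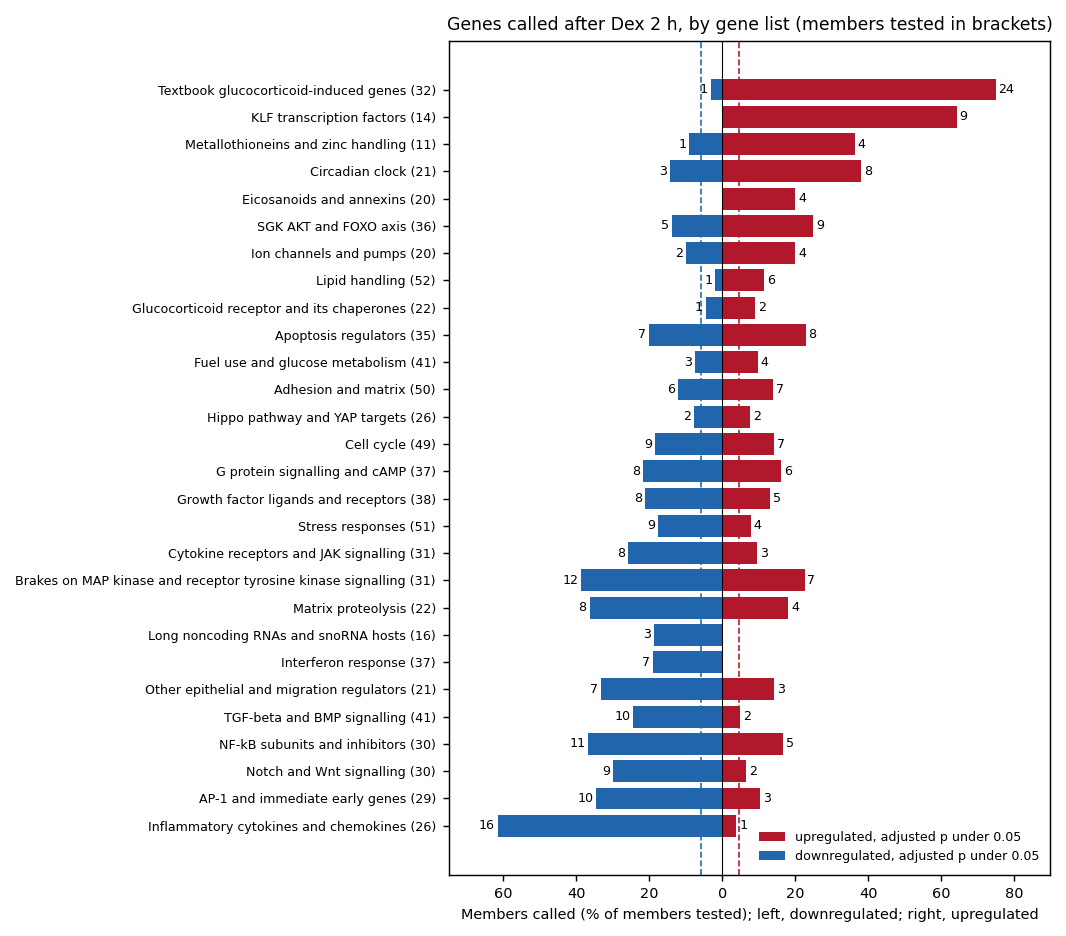
Bars show, for the gene lists shown, the percentage of tested members upregulated (right, red) and downregulated (left, blue) at an adjusted p under 0.05, with the number of genes at each bar end; dashed lines mark the same percentages over all genes tested, 4.49 and 5.82. Textbook glucocorticoid-induced genes (24 of 32 upregulated) stand at the top and cytokines and chemokines (16 of 26 downregulated) at the bottom.

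The KLF family of zinc finger factors, which bind GC-rich promoters, was mostly higher. Of 14 members tested, 9 were upregulated and 0 downregulated by limma (10 and 0 at an unadjusted p under 0.05), with a median difference of 0.46. In 10 of them (71.4%, against 20.1% of all genes) both Dex libraries lay above both vehicle libraries. KLF9, a repressor that answers to several hormones, was at 0.689 and 0.625 RPKM with vehicle and 9.75 and 10.2 after Dex (3.74 ± 0.10, adjusted p = 5.03e-08). KLF15, a regulator of amino acid and lipid catabolism, was at 1.75 and 1.34 RPKM with vehicle and 11.4 and 12.3 after Dex (2.87 ± 0.11, adjusted p = 2.27e-07). KLF7 was at 1.71 and 1.24 RPKM with vehicle and 5.89 and 6.09 after Dex (1.97 ± 0.14, adjusted p = 1.52e-05). These 3 members were scarce with vehicle, and the more abundant members had smaller differences. KLF4, a factor of epithelial differentiation, was at 25 and 22.2 RPKM with vehicle and 59.9 and 58.6 after Dex (1.32 ± 0.06, adjusted p = 1.16e-06). KLF6 was at 97 and 81.7 RPKM with vehicle and 187 and 192 after Dex (1.09 ± 0.08, adjusted p = 1.64e-05).

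The circadian clock runs on activators that drive repressors, which then switch the activators off. The activators CLOCK, ARNTL, NPAS2 and ARNTL2 had 0 calls by limma (4 tested, 1 lower at an unadjusted p under 0.05), while 6 of 11 repressors were upregulated and 2 downregulated. PER1, a core repressor, was at 2.07 and 1.28 RPKM with vehicle and 34.9 and 37.9 after Dex (4.4 ± 0.17, adjusted p = 2.6e-07). NFIL3, a bZIP repressor of clock output, was at 12.6 and 10.1 RPKM with vehicle and 29.6 and 31.4 after Dex (1.43 ± 0.09, adjusted p = 6.93e-06). NR1D1, the nuclear receptor REV-ERB alpha, was at 4.37 and 4.72 RPKM with vehicle and 9.27 and 9.64 after Dex (1.04 ± 0.06, adjusted p = 6.33e-06). CIART, a repressor of the CLOCK and ARNTL dimer, was at 0.384 and 0.417 RPKM with vehicle and 1.17 and 0.983 after Dex (1.23 ± 0.17, adjusted p = 0.00132). In these 4 repressors the Dex libraries lay above both vehicle libraries. Both vehicle values of CIART were under the 0.5 RPKM of the filter. BHLHE40, which also opposes CLOCK, was at 94 and 63.1 RPKM with vehicle and 44.5 and 47.3 after Dex (-0.74 ± 0.14, adjusted p = 0.00936), with a difference of -0.46 without Vehicle replicate 1 and an adjusted p of 0.0775 without Dex 2 h replicate 1. The 3 clock genes downregulated in all became 0 without Dex 2 h replicate 1 and 1 without Dex 2 h replicate 2 or Vehicle replicate 1.

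Metallothioneins, small proteins that bind zinc and copper, were higher in 4 of the 7 genes tested, a group that includes their regulator MTF1. MT2A, the most abundant, was at 546 and 564 RPKM with vehicle and 1659 and 1661 after Dex (1.58 ± 0.08, adjusted p = 2.57e-06). MT1X was at 32.5 and 35.1 RPKM with vehicle and 179 and 181 after Dex (2.41 ± 0.05, adjusted p = 6.12e-09). MT1E was at 109 and 116 RPKM with vehicle and 551 and 551 after Dex (2.29 ± 0.06, adjusted p = 5.03e-08). These genes are near-identical copies, so the share of reads given to each is uncertain. MT1A, MT1F and MTF1 had no call.

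**Figure D3:**
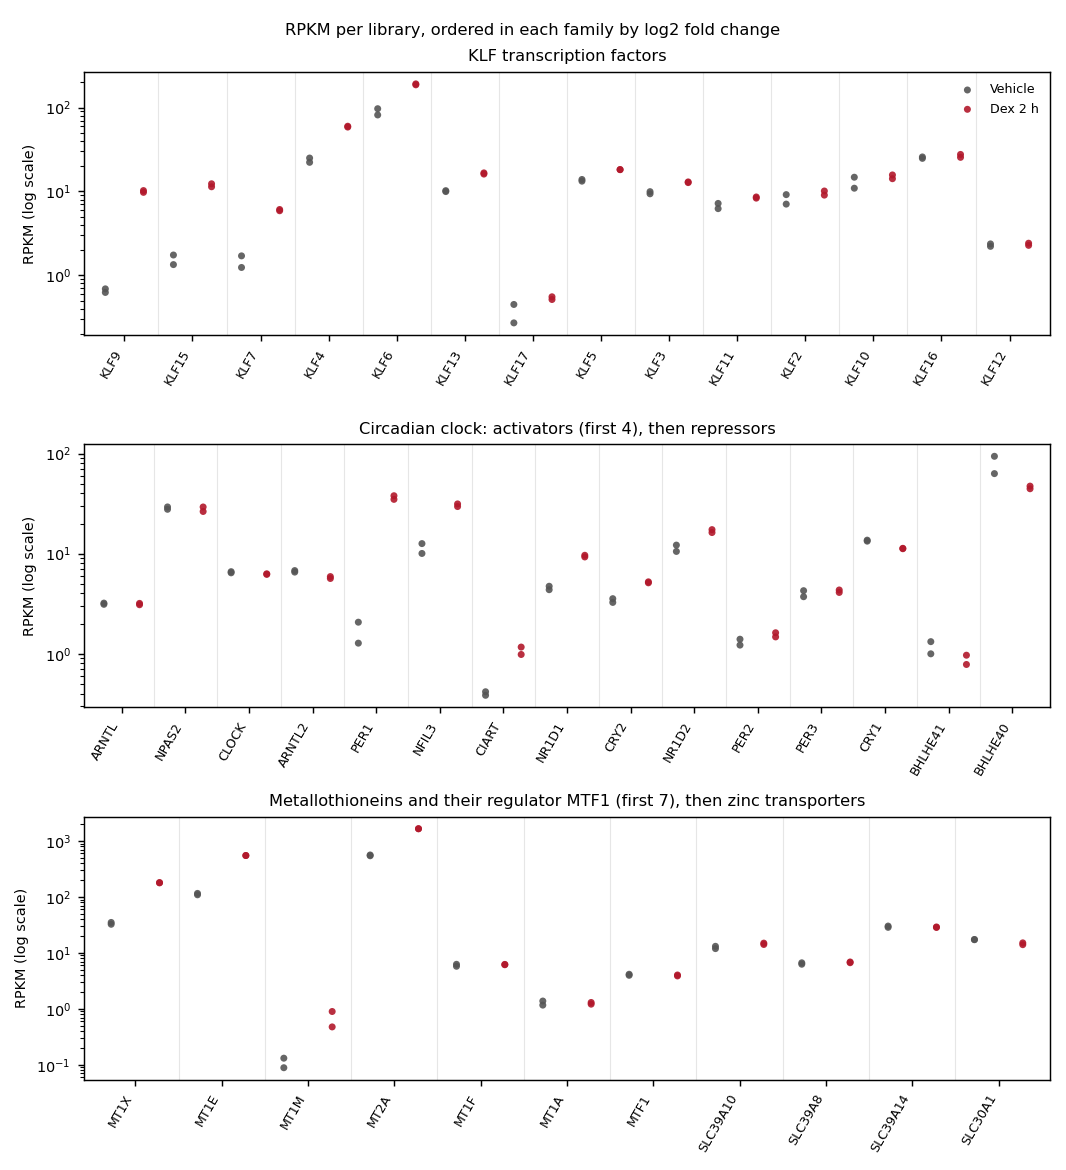
Points are the RPKM (log axis) of each vehicle (grey) and Dex 2 h (red) library for every tested member of the KLF family, the clock activators and repressors, and the metallothioneins with MTF1 and zinc transporters. KLF9, KLF15, KLF7, PER1, MT1X, MT1E and MT2A show Dex points above the vehicle points, while those of the 4 clock activators lie close together.

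Inflammatory cytokines and chemokines were lower as a list. Of 26 tested, 16 were downregulated and 1 upregulated, with a median difference of -0.74. In 19 of them (73.1%, against 31.4% of all genes) both Dex libraries lay below both vehicle libraries. Leaving out 1 library at a time gave 12 to 16 downregulated genes. The median was -0.43 with a pseudocount of 1, -0.25 over 41 genes with no filter on low values, and between -0.95 and -0.63 with 1 library left out. In the IL6 family, ligands that signal through the receptor subunit gp130, IL6 itself was at 28.1 and 11.2 RPKM with vehicle and 1.29 and 1.4 after Dex (-3.63 ± 0.32, adjusted p = 7.05e-05). IL11 was at 10.2 and 7.8 RPKM with vehicle and 1.94 and 1.98 after Dex (-2.13 ± 0.10, adjusted p = 1.48e-06). LIF was at 43.3 and 28.8 RPKM with vehicle and 17.3 and 19.8 after Dex (-0.93 ± 0.15, adjusted p = 0.00356). The Dex libraries lay below both vehicle libraries for each of these, although the vehicle libraries differed from each other for IL6. CXCL8, a neutrophil chemoattractant, was at 44.2 and 18.7 RPKM with vehicle and 4.81 and 5.77 after Dex (-2.43 ± 0.30, adjusted p = 0.000712). CCL2, a monocyte chemoattractant, was at 2.72 and 1.39 RPKM with vehicle and 0.299 and 0.194 after Dex (-2.58 ± 0.30, adjusted p = 0.00042). CSF2, a growth factor of granulocytes and macrophages, was at 12.8 and 6.08 RPKM with vehicle and 1.14 and 1.19 after Dex (-2.82 ± 0.31, adjusted p = 0.000311). The vehicle libraries also lay apart for CXCL8, CCL2 and CSF2. When 1 library was left out, the difference was -3.05 to -1.81 for CXCL8, -3.04 to -2.12 for CCL2 and -3.35 to -2.29 for CSF2. The TNF family ligand TNFSF10 (TRAIL) was at 26.6 and 25.6 RPKM with vehicle and 12.8 and 10.7 after Dex (-1.15 ± 0.10, adjusted p = 5.14e-05). The upregulated member was CSF3, the granulocyte colony stimulating factor, at 0.221 and 0.185 RPKM with vehicle and 2.8 and 2.92 after Dex (3.29 ± 0.17, adjusted p = 2.1e-06), a gene that was scarce with vehicle. Both vehicle values of CSF3 were under the 0.5 RPKM of the filter, so it could enter the count only as an increase.

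Genes of the NF-kB pathway went both ways, with 5 upregulated and 11 downregulated of 30. Without Dex 2 h replicate 2 the downregulated genes numbered 6, and without Dex 2 h replicate 1 or Vehicle replicate 2 they numbered 7. Of the 5 subunits, 3 were downregulated and 0 upregulated by limma (3 and 0 at an unadjusted p under 0.05), and the differences were small, as for NFKB1 at 28.4 and 30.2 RPKM with vehicle and 21.4 and 21.6 after Dex (-0.44 ± 0.05, adjusted p = 0.000295). NFKB2 was lower by a like amount (-0.44 ± 0.06, adjusted p = 0.00172). Among the inhibitors, TNFAIP3, a ubiquitin-editing brake, was at 5.35 and 3.32 RPKM with vehicle and 11 and 12.3 after Dex (1.44 ± 0.18, adjusted p = 0.000689). NFKBIA, which encodes IkB alpha, was at 47.9 and 37.8 RPKM with vehicle and 132 and 126 after Dex (1.6 ± 0.10, adjusted p = 6.65e-06). NFKBIE, which encodes IkB epsilon, moved the other way, at 38.5 and 32.7 RPKM with vehicle and 17.7 and 18.1 after Dex (-0.98 ± 0.07, adjusted p = 1.89e-05). BCL3, a nuclear protein of the IkB family, was at 18.7 and 9.29 RPKM with vehicle and 3.77 and 4.35 after Dex (-1.68 ± 0.25, adjusted p = 0.00218). Among kinases and adaptors, RIPK2, the kinase downstream of NOD receptors, was at 8.02 and 7.21 RPKM with vehicle and 17.3 and 15.3 after Dex (1.08 ± 0.07, adjusted p = 1.18e-05). TRAF1, an adaptor of TNF receptors, was at 14.9 and 9.59 RPKM with vehicle and 4.42 and 4.96 after Dex (-1.33 ± 0.17, adjusted p = 0.000708). The inhibitors of the pathway thus went both ways.

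**Figure D4:**
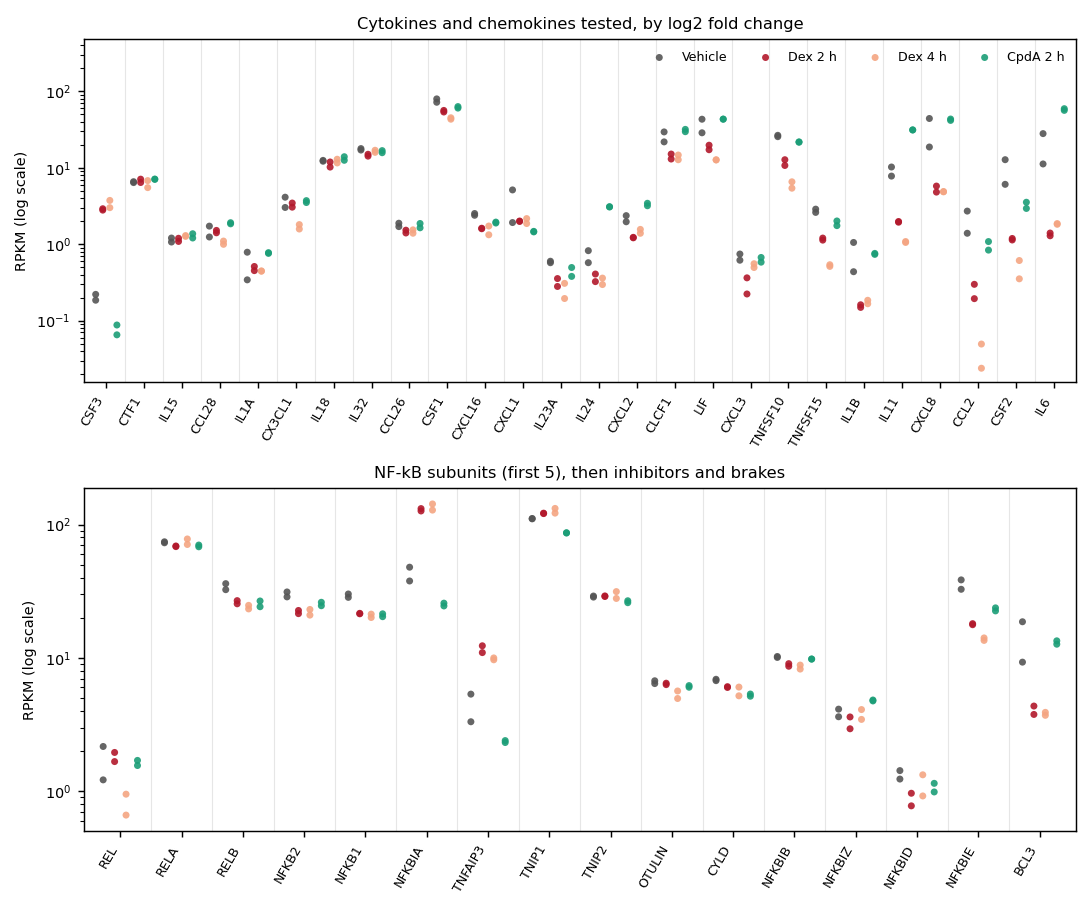
Points are the RPKM (log axis) of each library with vehicle, Dex 2 h, Dex 4 h and CpdA 2 h for all 26 cytokines and chemokines tested and for the NF-kB subunits and inhibitors, ordered by log2 difference at Dex 2 h. CSF3 stands above vehicle after Dex while IL6, CSF2, CCL2, CXCL8 and IL11 stand below, and NFKBIA and TNFAIP3 are higher where NFKBIE and BCL3 are lower.

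Promoter windows were searched for the letters that GR, NF-kB and AP-1 are known to bind. The windows, from RefSeq (GRCh38.p14), run from 250 bases before to 50 bases after the start of transcription. They were matched by symbol for 123 of the 170 genes upregulated and 53 of the 86 downregulated past a fold of 2. The NF-kB letters, GGG and TTTCC with any 2 bases between them, on either strand, were in 9 of the 123 (7.32%), in 4 of the 53 (7.55%) and in 2.91% of the 9358 tested genes with a window. The GR letters, the half-sites GNACA and TGTNC with any 3 bases between them, which read alike on both strands, were in 2 of the 123 (1.63%), in 0 of the 53 and in 0.331% of tested genes. The AP-1 letters, TGANTCA, also alike on both strands, were in 14 of the 123 (11.4%), in 6 of the 53 (11.3%) and in 7.01% of tested genes. These matches are a description, and no test was made of them. The study placed most Dex-responsive GR-binding locations outside promoters, in regions that these windows do not cover. The stretches of 30 bases that follow are shown because they hold the NF-kB letters before genes of opposite direction, and the GR letters in TXNIP, an inhibitor of thioredoxin. Each reads 5′ to 3′ on the strand of the gene, with the motif in capitals; in NFKBIA, TNFAIP3 and BIRC3 the capitals are the reverse complement of these letters.
NFKBIA (chr14:35404811-35404840, minus strand): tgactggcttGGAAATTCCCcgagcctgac
TNFAIP3 (chr6:137867194-137867223, plus strand): aaagtcccgtGGAAATCCCCgggcctacaa
BIRC3 (chr11:102317275-102317304, plus strand): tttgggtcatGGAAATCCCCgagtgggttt
IL6 (chr7:22727117-22727146, plus strand): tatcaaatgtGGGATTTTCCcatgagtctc
CXCL3 (chr4:74038749-74038778, minus strand): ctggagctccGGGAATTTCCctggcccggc
TXNIP (chr1:145996733-145996762, minus strand): agccaggaGCACACCGTGTCCacgcgccac
All of these matches lie before the start, at 81 to 72 bases for NFKBIA, 55 to 46 for TNFAIP3, 199 to 190 for BIRC3, 73 to 64 for IL6, 79 to 70 for CXCL3 and 175 to 163 for TXNIP. BIRC3, an inhibitor of apoptosis, was at 17.1 and 8.72 RPKM with vehicle and 52.8 and 55.6 after Dex (2.14 ± 0.24, adjusted p = 0.000324), so the NF-kB letters stood before 3 genes that rose. CXCL3, a neutrophil chemokine, was at 0.745 and 0.618 RPKM with vehicle and 0.223 and 0.363 after Dex (-1.01 ± 0.20, adjusted p = 0.0124). Its adjusted p was 0.0627 without Vehicle replicate 1 and 0.0921 without Dex 2 h replicate 1.

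A list of AP-1 subunits, their bZIP partners and immediate early genes gave 3 upregulated and 10 downregulated genes of 29. Immediate early genes are those that cells switch on within minutes of a stimulus. The 13 EGR, IER and NR4A genes gave 0 upregulated and 6 downregulated by limma (0 and 8 at an unadjusted p under 0.05). The increases were BATF, JDP2 and FOS. FOS was higher by 0.26 (adjusted p = 0.038 in limma), and by 0.2 to 0.31 when 1 library was left out. Its call was not firm, and was lost with a pseudocount of 1 and in a fit of only the 4 libraries compared. JUN was at 70.4 and 59.4 RPKM with vehicle and 21.8 and 20.1 after Dex (-1.62 ± 0.07, adjusted p = 8.68e-07). FOSL1, a FOS family partner of JUN, was at 385 and 280.1 RPKM with vehicle and 116 and 127 after Dex (-1.43 ± 0.12, adjusted p = 4.95e-05). IER2 was at 59.6 and 63.8 RPKM with vehicle and 18.8 and 21.2 after Dex (-1.62 ± 0.06, adjusted p = 3.79e-07). IER3, a survival gene driven by NF-kB, was at 116 and 62.9 RPKM with vehicle and 9.76 and 11.4 after Dex (-3.0 ± 0.22, adjusted p = 2.04e-05). NR4A2, an orphan nuclear receptor, was at 2.23 and 1.49 RPKM with vehicle and 0.549 and 0.661 after Dex (-1.45 ± 0.16, adjusted p = 0.000312). In each of these 5 genes both Dex libraries lay below both vehicle libraries. BATF, a JUN partner that lacks an activation domain, was at 0.955 and 0.901 RPKM with vehicle and 7.23 and 7.33 after Dex (2.85 ± 0.12, adjusted p = 7.51e-07). ATF3, at 13.1 and 5.58 RPKM with vehicle and 8.01 and 8.31 after Dex, and EGR1, at 6.84 and 3.12 RPKM with vehicle and 5.14 and 7.04 after Dex, had no call, and their vehicle libraries lay far apart. The balance of the list rested on the vehicle libraries: without Vehicle replicate 1 there were 8 upregulated and 11 downregulated genes and the median turned from -0.20 to 0.18, and without Vehicle replicate 2 there were 2 and 17 with a median of -0.46.

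Genes that restrain MAP kinases and receptor tyrosine kinases gave 7 upregulated and 12 downregulated of 31, the latter 5 without Dex 2 h replicate 1. The dual specificity phosphatases did not move together. Beside the increase of DUSP1, DUSP4, which acts on ERK in the nucleus, was at 43 and 45.5 RPKM with vehicle and 19.4 and 19.8 after Dex (-1.17 ± 0.05, adjusted p = 1.02e-06). DUSP7 was also lower (-0.78 ± 0.10, adjusted p = 0.000816). SPRY4, a Sprouty inhibitor of RAS signalling, was at 40.3 and 29.6 RPKM with vehicle and 102 and 116 after Dex (1.65 ± 0.14, adjusted p = 5.61e-05). PTPN1, the tyrosine phosphatase PTP1B, was at 71.3 and 65 RPKM with vehicle and 142 and 138 after Dex (1.04 ± 0.05, adjusted p = 2.6e-06).

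Growth factor ligands and receptors gave 5 upregulated and 8 downregulated genes of 38, with 3 upregulated without Dex 2 h replicate 1. Of 6 EGF receptor ligands tested, 3 were downregulated and 0 upregulated by limma (5 and 0 at an unadjusted p under 0.05). HBEGF was at 84.2 and 45 RPKM with vehicle and 10.4 and 10.9 after Dex (-2.52 ± 0.22, adjusted p = 7.41e-05). EREG (epiregulin) was at 5.39 and 3.84 RPKM with vehicle and 1.48 and 1.58 after Dex (-1.51 ± 0.13, adjusted p = 7.67e-05). TGFA was at 18.5 and 15.7 RPKM with vehicle and 11.2 and 11.6 after Dex (-0.58 ± 0.08, adjusted p = 0.00134). All 3 ligands were lower in both Dex libraries than in both vehicle libraries. VEGFA, the main angiogenic factor, was at 124 and 93.3 RPKM with vehicle and 48.8 and 58.9 after Dex (-1.0 ± 0.12, adjusted p = 0.000629). PGF, a related ligand of the receptor FLT1, was higher, at 3.26 and 2.3 RPKM with vehicle and 11 and 9.75 after Dex (1.88 ± 0.15, adjusted p = 4.82e-05). KDR, the main VEGF receptor, was at 0.751 and 0.814 RPKM with vehicle and 4.29 and 4.8 after Dex (2.4 ± 0.13, adjusted p = 2.65e-06), while the endothelial gene CDH5 stayed at 0.00832 and 0.0039 RPKM after Dex.

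Endothelins are vasoactive peptides that signal through G protein-coupled receptors, and 3 of the 5 genes tested were upregulated and 1 was downregulated. EDN2 was at 6.9 and 3.83 RPKM with vehicle and 105 and 107 after Dex (4.33 ± 0.21, adjusted p = 1.2e-06). EDN1 was at 22.7 and 10.2 RPKM with vehicle and 45.7 and 42.6 after Dex (1.53 ± 0.28, adjusted p = 0.00736). The EDN1 difference was 0.95 without Vehicle replicate 2, and its adjusted p was 0.0599 without Dex 2 h replicate 1. The receptor EDNRA was scarce, at 0.094 and 0.158 RPKM with vehicle and 0.505 and 0.52 after Dex (1.45 ± 0.25, adjusted p = 0.00561). Among the libraries compared, only those after Dex reached the 0.5 RPKM of the filter, so its place in the count is a description. The downregulated gene was ECE1, the enzyme that matures endothelins (-0.2 ± 0.05, adjusted p = 0.0242), with an adjusted p of 0.139 without Vehicle replicate 2, 0.103 without Dex 2 h replicate 1 and 0.141 without Dex 2 h replicate 2.

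**Figure D5:**
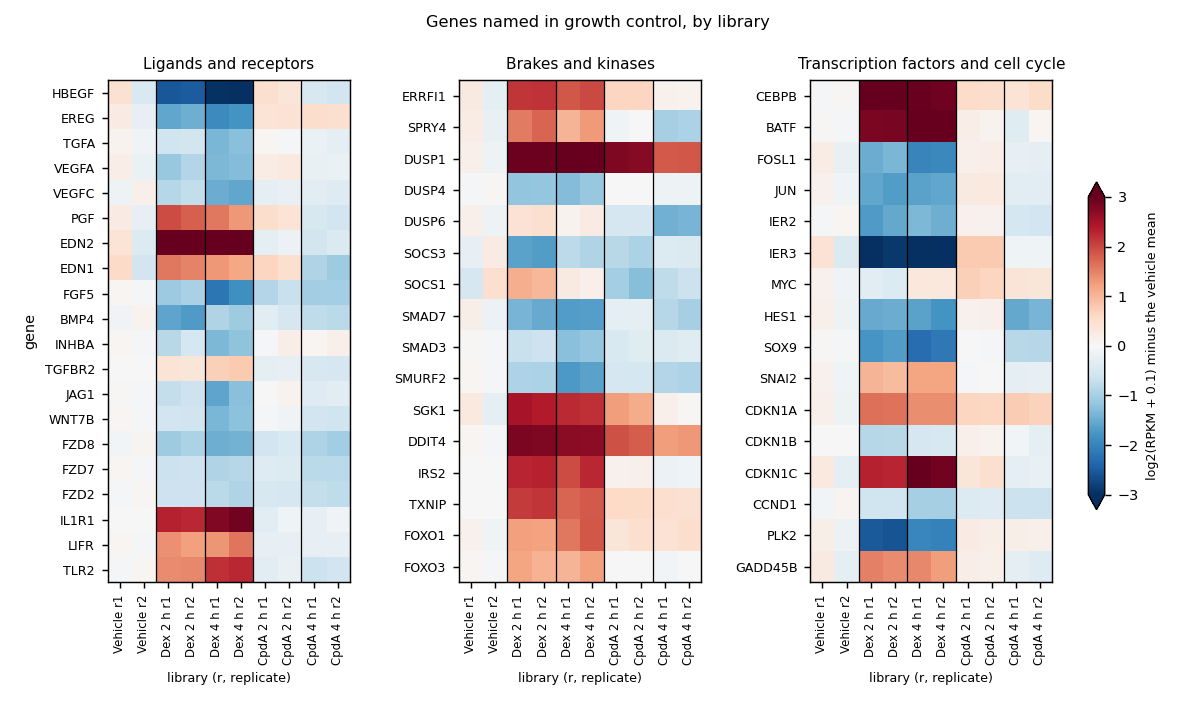
Colour shows, for each gene and each of the 10 RNA-seq libraries, log2(RPKM + 0.1) minus the mean of the vehicle libraries; red is higher, blue lower, and values past 3 in each direction take the end colour. After Dex 2 h, HBEGF, EREG, BMP4, JUN, SOX9 and PLK2 are blue and EDN2, IL1R1, ERRFI1, DDIT4, IRS2, CEBPB and CDKN1C are red, and DUSP1 is also red with CpdA.

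TGF-beta and BMP signalling gave 2 upregulated and 10 downregulated genes of 41, with 1 upregulated without Dex 2 h replicate 1. BMP4, a BMP ligand, was at 116 and 136 RPKM with vehicle and 41.9 and 38.4 after Dex (-1.64 ± 0.09, adjusted p = 3.48e-06). NOG, the secreted BMP antagonist noggin, was also lower, at 57.1 and 59 RPKM with vehicle and 34.1 and 34 after Dex (-0.77 ± 0.05, adjusted p = 6.24e-06). A ligand and an antagonist of the same branch thus fell together. Of 12 SMADs and their brakes, 5 were downregulated and 0 upregulated by limma (5 and 0 at an unadjusted p under 0.05). SMAD7, the inhibitory SMAD that TGF-beta induces, was at 9.9 and 7.72 RPKM with vehicle and 3.26 and 3.01 after Dex (-1.45 ± 0.11, adjusted p = 2.4e-05). SMURF2, a ubiquitin ligase of SMADs and their receptors, was at 94.9 and 87.2 RPKM with vehicle and 47.9 and 46.7 after Dex (-0.94 ± 0.05, adjusted p = 4.69e-06). SMAD3, which carries the TGF-beta signal, was at 26.2 and 24.9 RPKM with vehicle and 16.1 and 16.7 after Dex (-0.64 ± 0.05, adjusted p = 5.18e-05). The receptor TGFBR2 was higher, at 54.7 and 56 RPKM with vehicle and 74 and 70.7 after Dex (0.39 ± 0.04, adjusted p = 0.000282).

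In Notch and Wnt signalling 2 genes were upregulated (1 without Dex 2 h replicate 1 or either vehicle library) and 9 downregulated of 30. Wnt ligands and receptors gave 7 downregulated and 0 upregulated genes of 14 by limma (8 and 1 at an unadjusted p under 0.05). The Frizzled receptor FZD8 was at 4.97 and 5.61 RPKM with vehicle and 2.49 and 2.7 after Dex (-1.0 ± 0.09, adjusted p = 7.78e-05). FZD7 was at 46.4 and 42.8 RPKM with vehicle and 28.4 and 29 after Dex (-0.63 ± 0.05, adjusted p = 2.39e-05). WNT7B, a ligand, was lower as well (-0.58 ± 0.07, adjusted p = 0.000547). RNF43, a ubiquitin ligase that removes Frizzled receptors from the membrane, was scarce and higher, at 0.731 and 0.511 RPKM with vehicle and 1.55 and 1.33 after Dex (1.11 ± 0.15, adjusted p = 0.00143). HES1, a bHLH repressor and Notch target, was at 13.1 and 10.5 RPKM with vehicle and 4.03 and 4.14 after Dex (-1.5 ± 0.10, adjusted p = 1.21e-05). In the Hippo pathway, which restrains the coactivator YAP, 2 of 26 genes were upregulated and 2 downregulated. These counts became 6 upregulated without Vehicle replicate 1 and 6 downregulated without Vehicle replicate 2, and fell to 1 upregulated without Dex 2 h replicate 1 and 1 downregulated without either Dex 2 h library. The Hippo kinase gene STK4 was at 12.8 and 11.9 RPKM with vehicle and 12.5 and 12.6 after Dex and had no call (0.02 ± 0.07, adjusted p = 0.907). The study reported lower STK4 expression after Dex by RT-PCR, a different assay, without stating the time in its text.

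The SGK, AKT and FOXO axis, through which insulin and growth factors restrain FOXO factors, gave 9 upregulated and 5 downregulated genes of 36. SGK1, a kinase related to AKT, was at 18.7 and 12.3 RPKM with vehicle and 84.6 and 78.9 after Dex (2.42 ± 0.16, adjusted p = 9.36e-06). FOXO1 was at 0.854 and 0.705 RPKM with vehicle and 1.94 and 1.93 after Dex (1.22 ± 0.13, adjusted p = 0.000237). FOXO3 was at 4.48 and 4.18 RPKM with vehicle and 9.97 and 8.97 after Dex (1.11 ± 0.08, adjusted p = 2.4e-05). IRS2, an insulin receptor adaptor, was at 9.05 and 8.78 RPKM with vehicle and 43.8 and 44.7 after Dex (2.3 ± 0.08, adjusted p = 1.83e-07). TXNIP was at 112 and 113 RPKM with vehicle and 479 and 499.5 after Dex (2.12 ± 0.04, adjusted p = 6.12e-09). DDIT4 (REDD1), which restrains mTORC1, was at 53.8 and 49.1 RPKM with vehicle and 364 and 362 after Dex (2.82 ± 0.05, adjusted p = 4.8e-09), with nearly equal duplicates in both groups. NEDD4L, a ubiquitin ligase that SGK1 phosphorylates, was lower, at 23.6 and 21.8 RPKM with vehicle and 14.7 and 15.7 after Dex (-0.58 ± 0.06, adjusted p = 0.000291).

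Apoptosis regulators gave 8 upregulated and 7 downregulated genes of 35, and the latter numbered 3 without Dex 2 h replicate 1 and 2 without Dex 2 h replicate 2. MCL1, a pro-survival BCL2 member, was at 101 and 84.8 RPKM with vehicle and 161 and 165 after Dex (0.82 ± 0.07, adjusted p = 7.68e-05). BCL2L1, which encodes BCL-XL, was at 278 and 257 RPKM with vehicle and 361 and 341 after Dex (0.39 ± 0.06, adjusted p = 0.0029). PMAIP1, the pro-apoptotic BH3-only gene NOXA, was also higher (0.4 ± 0.05, adjusted p = 0.000859). Genes for and against survival were therefore both among the increases. TNFRSF1A, a receptor of TNF, was higher (0.44 ± 0.05, adjusted p = 0.000229), and TNFRSF21, a death receptor, was lower (-0.47 ± 0.04, adjusted p = 0.000114).

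Of 49 cell cycle genes, 7 were upregulated and 9 downregulated, the latter 5 without Dex 2 h replicate 2. The CDK inhibitors separated. CDKN1A (p21) was at 134 and 110.3 RPKM with vehicle and 383 and 379 after Dex (1.65 ± 0.08, adjusted p = 1.12e-06). CDKN1C (p57) was at 4.95 and 3.25 RPKM with vehicle and 20.2 and 20.1 after Dex (2.3 ± 0.15, adjusted p = 1.18e-05). CDKN1B (p27) was lower, at 14.3 and 14.2 RPKM with vehicle and 7.81 and 7.93 after Dex (-0.85 ± 0.06, adjusted p = 2.03e-05). CCND1 (cyclin D1), which drives entry into the cycle, was at 294 and 327 RPKM with vehicle and 204 and 204 after Dex (-0.6 ± 0.05, adjusted p = 5.18e-05). GADD45B, a stress gene linked to growth arrest, was at 39.4 and 27.1 RPKM with vehicle and 93.1 and 87.9 after Dex (1.47 ± 0.14, adjusted p = 0.00013). Of 22 genes of S phase and mitosis, 1 was upregulated and 2 downregulated. The 2 were PLK2, at 118 and 92.9 RPKM with vehicle and 18.3 and 17.3 after Dex (-2.55 ± 0.09, adjusted p = 1.86e-07), and PLK3 (-1.05 ± 0.12, adjusted p = 0.00033), polo-like kinases that answer to stress, while the mitotic PLK1 had no call.

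In the list of fuel use 9.76% of genes were upregulated and 7.32% downregulated, against 4.49% and 5.82% of all genes tested. Of 41, 4 were upregulated and 3 downregulated, with 8 upregulated without Vehicle replicate 1, and with 5 downregulated without Vehicle replicate 2 and 1 without Dex 2 h replicate 2. PDK4, a kinase that switches off pyruvate dehydrogenase, was at 0.158 and 0.141 RPKM with vehicle and 70.4 and 69.4 after Dex (8.13 ± 0.11, adjusted p = 1.12e-09). With vehicle PDK4 was under the 0.5 RPKM of the filter, so it could enter the count only as an increase. PDP1, a phosphatase that switches the same enzyme on, was at 52.9 and 40.3 RPKM with vehicle and 22.4 and 22.2 after Dex (-1.05 ± 0.10, adjusted p = 0.000163). Of the 6 kinases and phosphatases of this enzyme tested, PDK4 was upregulated, PDP1 was downregulated and 4 had no call, with 2 upregulated without Vehicle replicate 1. In lipid handling 6 of 52 genes were upregulated and 1 downregulated, with 10 upregulated without Vehicle replicate 1, and with 3 downregulated without Vehicle replicate 2 and 0 without Dex 2 h replicate 1 or 2. PLIN2, a coat protein of lipid droplets, was at 18.5 and 16.9 RPKM with vehicle and 54.6 and 52.2 after Dex (1.59 ± 0.06, adjusted p = 1.85e-07). ANGPTL4, an inhibitor of lipoprotein lipase, was at 2.7 and 3.65 RPKM with vehicle and 32.2 and 26.8 after Dex (3.18 ± 0.18, adjusted p = 3.62e-06). ACSL1, which activates fatty acids, was at 13.9 and 13.1 RPKM with vehicle and 25.7 and 25.9 after Dex (0.93 ± 0.05, adjusted p = 2.65e-06). Cholesterol synthesis and uptake gave 0 upregulated and 1 downregulated gene of 20 by limma (1 and 3 at an unadjusted p under 0.05). These counts were 3 upregulated without Vehicle replicate 1, 3 downregulated without Vehicle replicate 2 and 0 downregulated without either Dex 2 h library.

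Eicosanoids are lipid mediators made by cyclooxygenases and lipoxygenases, and 4 of 20 genes of this list were upregulated and 0 downregulated by limma (5 and 0 at an unadjusted p under 0.05). Without Dex 2 h replicate 1 the upregulated genes numbered 2. PTGS2 (COX-2), a gene that glucocorticoids lower in many cells, was higher here, at 2.9 and 2.48 RPKM with vehicle and 4.63 and 5.88 after Dex (0.93 ± 0.14, adjusted p = 0.00237). ALOX15B, a lipoxygenase, was at 0.0144 and 0.0142 RPKM with vehicle and 0.392 and 0.498 after Dex (2.25 ± 0.21, adjusted p = 0.000114). All of these values were under the 0.5 RPKM of the filter, which ALOX15B passed through libraries outside this comparison. The annexin gene ANXA1, a known glucocorticoid target, was at 386 and 374 RPKM with vehicle and 391 and 368 after Dex and had no call (adjusted p = 0.991).

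Among 22 genes of matrix proteolysis 4 were upregulated and 8 downregulated, the latter 5 without Dex 2 h replicate 1 or 2. In the plasminogen system, the activator PLAT (tPA) was at 164 and 167 RPKM with vehicle and 270.1 and 273 after Dex (0.72 ± 0.04, adjusted p = 1.5e-06). PLAUR, the urokinase receptor, was at 61.8 and 65.6 RPKM with vehicle and 33.8 and 34.8 after Dex (-0.89 ± 0.04, adjusted p = 1.02e-06). The activator was thus higher and the receptor lower. ADAMTS1, a secreted protease, was at 6.54 and 7.16 RPKM with vehicle and 2.09 and 2.1 after Dex (-1.66 ± 0.12, adjusted p = 2.44e-05). Integrins gave 4 upregulated and 0 downregulated genes of 13 by limma (4 and 1 at an unadjusted p under 0.05). The upregulated integrins numbered 3 without Dex 2 h replicate 1 and 2 without any of the other 3 libraries, and 1 integrin was downregulated without Vehicle replicate 1. ITGA5, a subunit of the fibronectin receptor, was at 44.2 and 39.8 RPKM with vehicle and 116 and 122 after Dex (1.5 ± 0.06, adjusted p = 2.36e-07). ICAM1, a ligand of leukocyte integrins, was at 51.6 and 47.8 RPKM with vehicle and 23.8 and 24.3 after Dex (-1.04 ± 0.05, adjusted p = 7.68e-07). Collagens and laminins gave 0 upregulated and 2 downregulated of 23 by limma (0 and 3 at an unadjusted p under 0.05), with 1 downregulated without Dex 2 h replicate 1, Dex 2 h replicate 2 or Vehicle replicate 2. NEDD9, a scaffold of focal adhesions, was at 32.9 and 18.2 RPKM with vehicle and 59.4 and 53.1 after Dex (1.2 ± 0.21, adjusted p = 0.00605). Its difference was 0.77 without Vehicle replicate 2, and its adjusted p in limma was 0.0568 without Dex 2 h replicate 1.

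Of the factors of epithelial to mesenchymal transition, SNAI2 (Slug) was at 42.2 and 35.9 RPKM with vehicle and 79.2 and 74.9 after Dex (0.98 ± 0.07, adjusted p = 1.52e-05). SOX9 was at 35.7 and 34.5 RPKM with vehicle and 10.3 and 10.9 after Dex (-1.72 ± 0.06, adjusted p = 1.14e-07). CLDN1 (claudin-1), a tight junction gene, was at 3.44 and 3.5 RPKM with vehicle and 1.49 and 1.33 after Dex (-1.24 ± 0.15, adjusted p = 0.000585).

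Of 23 cytokine receptors, 3 were upregulated and 7 downregulated, the latter 4 without Dex 2 h replicate 1 or Vehicle replicate 2 and 3 without Dex 2 h replicate 2. Together with the 8 kinases tested beside them, 8 of 31 were downregulated, and fewer without either Dex 2 h library. The downregulated kinase was MAP3K8, which is not a JAK, with a difference of -0.88 to -0.71 when 1 library was left out. The 3 upregulated receptors were IL1R1, LIFR and TLR2, of which TLR2 is not itself a cytokine receptor. Those downregulated included IL1RAP (-0.48, adjusted p = 0.00243 in limma) and TNFRSF11B (-0.79 to -0.78 when 1 library was left out). IL1R1, the receptor of IL-1, was at 2.9 and 2.94 RPKM with vehicle and 14.9 and 14.4 after Dex (2.29 ± 0.08, adjusted p = 1.98e-07). LIFR, the receptor of LIF, was at 5.13 and 4.73 RPKM with vehicle and 13 and 11.8 after Dex (1.31 ± 0.09, adjusted p = 1.66e-05). TLR2, a receptor of bacterial lipoproteins, was at 6.72 and 7.23 RPKM with vehicle and 18.8 and 19.2 after Dex (1.44 ± 0.06, adjusted p = 4.77e-07). The receptor LIFR was thus higher while its ligand LIF was lower. The interferon list gave 0 upregulated and 7 downregulated genes of 37 by limma (0 and 10 at an unadjusted p under 0.05). IRF1, a factor that induces interferon genes, was at 21.1 and 14.7 RPKM with vehicle and 7.86 and 8.84 after Dex (-1.07 ± 0.14, adjusted p = 0.000896). GBP1, a GTPase induced by interferon, was at 17.6 and 17.1 RPKM with vehicle and 10.4 and 9.72 after Dex (-0.78 ± 0.06, adjusted p = 3.24e-05).

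In G protein signalling 6 of 37 genes were upregulated and 8 downregulated, the latter 4 without Dex 2 h replicate 1 or 2. RGS proteins speed GTP hydrolysis by G proteins, and RGS2 was at 1.39 and 1.33 RPKM with vehicle and 3.64 and 3.29 after Dex (1.29 ± 0.11, adjusted p = 5.47e-05). RGS4 was lower, at 20.4 and 19.8 RPKM with vehicle and 8.33 and 7.69 after Dex (-1.32 ± 0.06, adjusted p = 6.23e-07). S1PR1, a receptor of sphingosine-1-phosphate, was at 0.908 and 1.24 RPKM with vehicle and 2.93 and 3.46 after Dex (1.5 ± 0.17, adjusted p = 0.000319). AKAP12, a scaffold of protein kinase A, was at 4.15 and 4.52 RPKM with vehicle and 17.6 and 20.5 after Dex (2.1 ± 0.12, adjusted p = 5.2e-06).

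Among ion channels and pumps 4 of 20 genes were upregulated and 2 downregulated. The downregulated genes numbered 0 without Dex 2 h replicate 1, 1 without Dex 2 h replicate 2 and 4 without Vehicle replicate 1. Solute carriers by name gave 16 upregulated and 8 downregulated of 200, the latter 3 without Dex 2 h replicate 1 and 4 without Vehicle replicate 2. SLC7A2, a carrier of arginine, was at 2.0 and 2.44 RPKM with vehicle and 16.1 and 17.1 after Dex (2.86 ± 0.13, adjusted p = 7.96e-07). SLC19A2, a thiamine carrier, was at 9.0 and 7.62 RPKM with vehicle and 43.3 and 43.5 after Dex (2.38 ± 0.07, adjusted p = 8.08e-08). SLC20A1, a phosphate carrier, was at 112 and 84.5 RPKM with vehicle and 359.7 and 385 after Dex (1.93 ± 0.11, adjusted p = 3.9e-06).

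Stress genes gave 4 upregulated and 9 downregulated of 51. Without Vehicle replicate 1 the upregulated genes numbered 7, and without Dex 2 h replicate 1 or 2 the downregulated genes numbered 5. Among 12 targets or parts of the NRF2 antioxidant pathway, 5 were downregulated and 1 upregulated, with 2 downregulated without either Dex 2 h library. HMOX1, heme oxygenase, was at 14.4 and 17 RPKM with vehicle and 9.41 and 9.83 after Dex (-0.7 ± 0.07, adjusted p = 0.000187). GCLC, the enzyme that starts glutathione synthesis, was at 8.8 and 11 RPKM with vehicle and 19.8 and 19.9 after Dex (1.01 ± 0.09, adjusted p = 7.62e-05). BAG3, a co-chaperone of HSP70, was at 56.7 and 53.9 RPKM with vehicle and 97 and 95.5 after Dex (0.8 ± 0.06, adjusted p = 1.52e-05).

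The large housekeeping families had few calls at 2 h. Ribosomal proteins gave 0 upregulated and 1 downregulated gene of 76 by limma (median 0.022), and nuclear subunits of oxidative phosphorylation gave 1 and 0 of 80 by limma (median 0.0049). Proteasome subunits gave 0 and 0 of 46 by limma (median -0.033) and tRNA synthetases 0 and 0 of 17 by limma (median -0.019). At an unadjusted p under 0.05 the same counts were 1 and 3 for ribosomal proteins, 3 and 0 for oxidative phosphorylation, 0 and 2 for the proteasome and 0 and 1 for tRNA synthetases. The lone calls of ribosomal proteins and oxidative phosphorylation were lost without Dex 2 h replicate 1 or Vehicle replicate 2, 1 ribosomal protein was upregulated without Dex 2 h replicate 2, and without Vehicle replicate 1 there were 2 downregulated proteasome genes and 1 downregulated tRNA synthetase. In the fits tried the medians of these 4 families lay between -0.057 and 0.061. The 430 ZNF zinc finger genes gave 12 upregulated (2.79%) and 21 downregulated (4.88%) with a median of -0.09. Both shares were under those of all genes tested, 4.49% and 5.82%. In 206 of the ZNF genes both Dex libraries lay below both vehicle libraries (47.9% against 31.4% of all genes). The calls of this family depended on single libraries. The median was between -0.12 and -0.06 in the fits tried. ZNF703, a corepressor, was at 40.8 and 40.4 RPKM with vehicle and 12.5 and 11.2 after Dex (-1.77 ± 0.05, adjusted p = 8.08e-08). ZNF57 was at 2.33 and 2.3 RPKM with vehicle and 9.18 and 8.46 after Dex (1.89 ± 0.06, adjusted p = 1.45e-07).

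Short and noncoding RNAs had less firm values, and their calls lay near or below the shares of all genes tested (4.49% upregulated, 5.82% downregulated). The shares upregulated and downregulated were 0.855% and 5.13% for small nucleolar RNAs and 3.85% and 5.77% for microRNA loci. They were 5% and 2.5% for LINC RNAs and 1.8% and 2.7% for antisense RNAs. Of 117 small nucleolar RNA genes, 1 was upregulated and 6 downregulated (median -0.41). The median was -0.2 with a pseudocount of 1, -0.22 over 213 genes with no filter, -0.21 without Dex 2 h replicate 1 and -0.62 without Dex 2 h replicate 2. The downregulated genes numbered 2 without Vehicle replicate 2 and 15 without Dex 2 h replicate 2, and the upregulated genes 4 without Vehicle replicate 1 and 2 without Vehicle replicate 2. These RNAs lie in introns of host genes, whose reads could not be told apart from theirs. MicroRNA loci gave 4 upregulated and 6 downregulated of 104, with 2 upregulated without Dex 2 h replicate 1. MIR503HG, a host transcript of microRNAs, was at 1.29 and 1.15 RPKM with vehicle and 3.47 and 4.81 after Dex (1.67 ± 0.25, adjusted p = 0.00236). LINC RNAs gave 4 and 2 of 80, and 2 and 0 without Dex 2 h replicate 1. LINC00673 was at 13.3 and 17 RPKM with vehicle and 35.3 and 33.7 after Dex (1.2 ± 0.11, adjusted p = 8.67e-05). Antisense RNAs gave 4 and 6 of 222, with 2 upregulated without Vehicle replicate 2 and 0 without Dex 2 h replicate 2, and without strand their reads cannot be told from those of the partner gene.

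Large differences were also found in genes of none of these lists. SMIM3, a small membrane protein, was at 5.17 and 6.14 RPKM with vehicle and 77.1 and 70.0 after Dex (3.68 ± 0.10, adjusted p = 4.9e-08). PNMT, which makes adrenaline from noradrenaline and is a known glucocorticoid target in the adrenal medulla, was at 0.0558 and 0.0735 RPKM with vehicle and 1.69 and 2.06 after Dex (3.58 ± 0.25, adjusted p = 1.76e-05). Among the libraries compared, PNMT reached the 0.5 RPKM of the filter only after Dex, so it could be named only as an increase. FLVCR2, a membrane transporter, was at 1.43 and 1.41 RPKM with vehicle and 13.2 and 13.2 after Dex (3.12 ± 0.07, adjusted p = 1.04e-08). CYP1A1, an enzyme induced by the aryl hydrocarbon receptor, was at 2.78 and 3.85 RPKM with vehicle and 0.421 and 0.562 after Dex (-2.52 ± 0.22, adjusted p = 6.15e-05). ASB2, an adaptor of ubiquitin ligases, was at 1.11 and 1.09 RPKM with vehicle and 0.18 and 0.246 after Dex (-1.94 ± 0.19, adjusted p = 0.000161). IRF2BPL was at 29.8 and 24 RPKM with vehicle and 6.61 and 7.36 after Dex (-1.92 ± 0.10, adjusted p = 1.66e-06). The groups did not overlap in these 6 genes, but the rule that named the largest changes required this, so it is not a result.

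CpdA at 2 h (10 μM, against 100 nM for Dex) was set beside Dex 2 h by a direct contrast in the same fit, Dex 2 h minus CpdA 2 h, in which 13.7% of all genes passed; the doses differ, so the values describe these treatments and not the ligands at a matched dose. DUSP1 was at 90.8 and 86.5 RPKM with CpdA, and its difference from Dex did not pass (0.19 ± 0.08, adjusted p = 0.215). TSC22D3, the leucine zipper gene GILZ, was at 304 and 302 RPKM with Dex and 12.4 and 12.1 with CpdA (4.62 ± 0.07, adjusted p = 2.54e-09). DDIT4 was at 193 and 182 RPKM with CpdA (0.95 ± 0.05, adjusted p = 2.27e-06). Several genes that were lower after Dex lay above both vehicle libraries with CpdA. IL6 was at 59.5 and 56.5 RPKM with CpdA (-5.33 ± 0.32, adjusted p = 4.52e-06). IL11 was at 31.3 and 31.4 RPKM (-3.93 ± 0.10, adjusted p = 3.75e-08). NR4A2 was at 24.2 and 22 RPKM (-5.04 ± 0.16, adjusted p = 9.4e-08). HMOX1 was at 42.3 and 43.8 RPKM (-2.15 ± 0.07, adjusted p = 1e-07). For ICAM1, at 27.3 and 27.2 RPKM with CpdA, the contrast was small (-0.18 ± 0.05, adjusted p = 0.0307). IRF1 was at 8.27 and 8.33 RPKM, and its contrast did not pass (0.01 ± 0.14, adjusted p = 0.991).

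Dex at 4 h was set beside Dex 2 h by the contrast Dex 4 h minus Dex 2 h, in which 13.6% of all genes passed. TSC22D3 was at 315 and 305 RPKM at 4 h, and no difference from 2 h was shown (0.03 ± 0.07, adjusted p = 0.8). PER1 was at 38.6 and 36.6 RPKM, again with none shown (0.05 ± 0.17, adjusted p = 0.878). Others were higher at 4 h than at 2 h. MT1E was at 1024 and 891 RPKM (0.79 ± 0.06, adjusted p = 0.000148). TLR2 was at 32.4 and 34 RPKM (0.8 ± 0.06, adjusted p = 0.000125). ALOX15B was at 4.95 and 4.69 RPKM (3.18 ± 0.21, adjusted p = 8.78e-05). Among genes upregulated at 2 h, BCL6 was lower again at 4 h, at 12.9 and 14.1 RPKM (-1.01 ± 0.16, adjusted p = 0.00377). NR1D1 was also lower again, at 5.96 and 5.79 RPKM (-0.68 ± 0.06, adjusted p = 0.000328). Among genes downregulated at 2 h, SOCS3 was higher again at 4 h, at 4.57 and 4.19 RPKM (0.8 ± 0.14, adjusted p = 0.00566). BMP4 was at 67.1 and 59.7 RPKM (0.66 ± 0.09, adjusted p = 0.00205). TNFSF10, at 6.56 and 5.41 RPKM (-0.96 ± 0.10, adjusted p = 0.00042), and SMURF2, at 27.6 and 30.1 RPKM (-0.71 ± 0.05, adjusted p = 0.000148), were lower still at 4 h.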

How the data were processed

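The series held RNA-seq of MDA-MB-231 cells in 10 libraries, and only those libraries were used; the other samples of the series were not used here. The authors made single-end libraries that do not mark strand, aligned reads with TopHat2 2.0.13, quantified them in Partek 6.6 and deposited RPKM per gene symbol for each library (20668 symbols). RPKM divides by length and by mapped reads, so depth and counts are not kept, and multi-copy genes share reads. The submitters' processing notes also name Bowtie and the build hg19, which the study states for its ChIP-exo and ChIP-seq reads and not for RNA-seq; no coordinate was taken from the deposited files.

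Groups were taken from the labels. Values were set to log2(RPKM + 0.1), 12713 genes with at least 0.5 RPKM in at least 2 of 10 libraries were kept, and limma 3.58.1 (R 4.3.3) was fitted over 5 groups of 2 with moderated variance and an abundance trend, two-sided, with Benjamini-Hochberg adjustment. The fit was tested on simulated data. Tables and plots used Python 3.11.15, numpy 2.4.6, pandas 2.3.3 and matplotlib 3.10.9. RefSeq promoter windows (35116, GRCh38.p14) were searched for 3 motifs, matched by symbol only.

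Genes came from 31 lists and 14 families by symbol; 16 listed symbols had no match, and 894 of 1055 matched symbols were kept. The members, lists and motifs were chosen with earlier results of these data known, and no list was tested as a set. Genes were named if among the 15 largest increases or decreases with a fold over 2, both Dex libraries on 1 side of both vehicle libraries and a mean of at least 1 RPKM in either group, if among at most 5 called members of a role, or as NR3C1, BIRC3, PTPN1, NFKBIA, NEDD9 or STK4, with founding members given as values. In all, 14 alternatives were tried: other pseudocounts, filters, scalings and variance models, a replicate block, and leaving out each of the 4 libraries. A few genes and 1 list are not reported here.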

Additional observations from a re-analysis of the deposited data

Results flagged for a closer look

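The contrast of Dex 4 h with Dex 2 h was made directly in the same limma fit. It passed at an adjusted p under 0.05 for 14 of 36 genes, so the level after Dex differed between the times. No vehicle of matched time was subtracted, so whether the effect of Dex differed was not tested. The 36 are the 15 largest increases and the 15 largest decreases at 2 h with NR3C1, BIRC3, PTPN1, NFKBIA, NEDD9 and STK4. Over all 311 genes named or listed for naming, 136 passed the same contrast. Values are Dex 4 h minus Dex 2 h on the log2 scale.

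Among the 15 largest increases at 2 h, 4 were higher still at 4 h. The co-chaperone gene FKBP5 went from 75 and 73.4 RPKM at 2 h to 203 and 212 at 4 h (1.48 ± 0.07, adjusted p = 2.09e-05). PNMT went from 1.69 and 2.06 to 5.0 and 3.87 RPKM (1.2 ± 0.25, adjusted p = 0.0161), and FLVCR2 from 13.2 and 13.2 to 18.1 and 17.9 (0.45 ± 0.07, adjusted p = 0.00332). The pseudogene ZDHHC8P1, whose reads may belong to its parent gene, went from 1.1 and 1.49 to 4.8 and 3.76 RPKM (1.65 ± 0.22, adjusted p = 0.00176). PDK4 came down, from 70.4 and 69.4 to 37.5 and 39.1 RPKM (-0.87 ± 0.11, adjusted p = 0.00154).

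Among the 15 largest decreases at 2 h and NR3C1, CSF2 fell on, from 1.14 and 1.19 RPKM at 2 h to 0.352 and 0.612 at 4 h (-1.15 ± 0.31, adjusted p = 0.0408). CCL2 went from 0.299 and 0.194 to 0.0494 and 0.0238 RPKM (-1.33 ± 0.30, adjusted p = 0.0199), IL11 from 1.94 and 1.98 to 1.05 and 1.08 (-0.82 ± 0.10, adjusted p = 0.00137), ASB2 from 0.18 and 0.246 to 0.0443 and 0.0801 (-0.95 ± 0.19, adjusted p = 0.0135) and the receptor gene NR3C1 from 14.6 and 14.7 to 9.96 and 12.1 (-0.41 ± 0.09, adjusted p = 0.0151). PLK2 was higher at 4 h than at 2 h, at 26.8 and 25.7 RPKM (0.56 ± 0.09, adjusted p = 0.00474), and stayed below vehicle.

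The last 3 genes are short RNAs, and in MIR3655 and SNORD35B the duplicates lay apart at 2 h. The locus MIR3655 was at 0.00714 and 0.0689 RPKM with vehicle, 2.78 and 0.997 at 2 h and 0.000138 and 0.0392 at 4 h (-3.91 ± 0.97, adjusted p = 0.0301); its difference at 2 h (3.73 ± 0.97, adjusted p = 0.0414) lost its call when any of the 4 libraries was left out. SNORD35A was at 0.20 and 0.187 RPKM at 2 h and 1.5 and 0.621 at 4 h (1.87 ± 0.48, adjusted p = 0.0331), and SNORD35B at 0.592 and 2.04 and 4.45 and 3.48 (1.73 ± 0.43, adjusted p = 0.0307). The call of SNORD35B against vehicle at 2 h was lost without Vehicle replicate 1 or 2 (adjusted p = 0.0599 and 0.14 in limma), and its difference was -1.09 without Dex 2 h replicate 1. The call of SNORD35A was lost without Vehicle replicate 2, Dex 2 h replicate 1 or Dex 2 h replicate 2 (adjusted p = 0.263, 0.165 and 0.157 in limma).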

How the results depend on the processing

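Of 311 genes named or listed for naming, 310 were called at 2 h. Of these, 261 had a value in all 14 alternatives and 182 were called in each, and the other 49 were under the stricter filter and had 13, in all of which 21 were called. A pseudocount of 1 gave 112 upregulated and 53 downregulated genes past a fold of 2 (170 and 86 with 0.1), as the scale itself shrinks low genes. At an adjusted p alone, the downregulated genes numbered 380 to 867 when 1 library was left out, lowest without Dex 2 h replicate 1 (380) and then without Dex 2 h replicate 2 (451), and the upregulated genes 386 to 638. Past a fold of 2 the same fits gave 160 to 176 upregulated and 73 to 105 downregulated, and past a fold of 1.5 they gave 264 to 336 and 177 to 250. STK4, which had no call, lay between -0.025 and 0.068 when 1 library was left out and changed sign without Vehicle replicate 2 (-0.025, adjusted p = 0.973). Without moderation of the variance 85 genes lost their call, the most of any setting, and the cause was not tested. The replicate numbers of the groups are only shared numbers: the correlation of deviations of same-numbered vehicle and Dex 2 h libraries was 0.104, with 2 pairs. With the replicate block 169 genes were upregulated and 90 downregulated past a fold of 2, 297 and 226 past a fold of 1.5, and 618 and 836 at an adjusted p alone, and 3 named genes lost their call. Read totals are unknown, so low RPKM values carry no interval, and with 2 libraries a group the spread rests on the pooled estimate.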
